A study of Mus musculus with 9 samples.

Results

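The MHC class II antigen presentation genes were followed in mouse liver during thioacetamide (TAA) injury and after its withdrawal. They were taken by gene symbol from the deposited mRNA table, and all 9 listed members were present among its 21873 genes: H2-Aa, H2-Ab1, H2-Eb1, H2-DMa, H2-DMb1, H2-Oa, H2-Ob, Cd74 and Ciita. All 9 were also among the 14094 genes that passed the filter on low values. Male C57BL/6 mice, which were 8 weeks old when injections began, formed 3 groups of 3. The control group received intraperitoneal normal saline for 8 weeks, the TAA group received intraperitoneal TAA (a liver toxicant that is converted to reactive products in hepatocytes) for 8 weeks, and the recovery group received the same TAA course followed by 8 weeks without it. Recovery livers thus came from animals 8 weeks older than those of the other groups, and no saline group of their age was analysed here. In recovery against TAA, age therefore cannot be told apart from time off TAA. In recovery against control, age cannot be told apart from the past TAA course and its withdrawal. Each library was made from whole liver, where a higher share of class II positive cells and more class II mRNA per cell cannot be told apart.

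MHC class II molecules display peptides from engulfed proteins to CD4+ T cells. They are alpha-beta pairs that are assembled with the invariant chain, sent to endosomes and loaded with peptide there by the exchange factor DM, which DO restrains. The constitutive set of cells with class II on their surface includes dendritic cells, B cells and many macrophages, and the liver is rich in resident macrophages (Kupffer cells) that can carry it. The coactivator CIITA does not bind DNA itself but is recruited to the class II promoters by factors seated on conserved X and Y boxes. In C57BL/6 mice the E alpha chain gene is nonfunctional, so the product of H2-Eb1 has no partner to form an E molecule at the cell surface.

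Coordinates are those of the deposited table, in mm10 (GRCm38). H2-Oa, H2-DMa, H2-DMb1, H2-Ob, H2-Ab1, H2-Aa and H2-Eb1 stood in that order within 224 kb, at chr17:34092340-34316674, with H2-Aa on the minus strand and the other 6 on the plus strand. Ciita lies at chr16:10480059-10528418 on the plus strand, and Cd74 lies on a further chromosome. The RefSeq promoter table (GRCm38.p6, 250 bases before to 50 after each start) held entries for 6 members, H2-Oa, H2-DMa, H2-DMb1, H2-Ob, H2-Aa and H2-Eb1. The letters searched on both strands of the 250 upstream bases were TGATTGG, which includes the inverted CCAAT core of a Y box, and GCAAC, a core of the X box. They were chosen after the promoters had been read. TGATTGG was found for 5 of the 6 members and in 7.23% of all 32851 windows. GCAAC followed on the same strand by TGATTGG, starting 20 to 40 bases later, was found for H2-Oa, H2-Ob, H2-Aa and H2-Eb1 and in 0.183% of all windows. These 4 stretches are shown because the coactivator gene Ciita and the genes it acts on are set side by side below. Capitals mark GCAAC and TGATTGG, and each sequence reads 5′ to 3′ on the strand of its gene.
H2-Oa (chr17:34092299-34092340, plus strand): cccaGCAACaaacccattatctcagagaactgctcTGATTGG
H2-Ob (chr17:34238814-34238852, plus strand): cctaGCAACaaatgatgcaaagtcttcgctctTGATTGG
H2-Aa (chr17:34287867-34287908, minus strand): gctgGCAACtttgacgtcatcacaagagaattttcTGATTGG
H2-Eb1 (chr17:34305772-34305812, plus strand): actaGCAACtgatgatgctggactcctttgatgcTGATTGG
The cores were 28 bases apart in H2-Ob, 30 in H2-Eb1 and 31 in H2-Aa and H2-Oa, counted from the first base of GCAAC to the first base of TGATTGG. H2-DMb1 had TGATTGG without GCAAC at that distance, and the 2 windows listed for H2-DMa had neither arrangement. The last base printed for H2-Oa is the first base of its locus in the deposited table. A match of letters is a description of these windows and not a measured binding site.

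Values below are FPKM (fragment numbers normalized to transcript length and library size) divided by a median-of-ratios scaling factor for each library, called scaled FPKM. Library depth, worked out from the spacing of the low FPKM values, was 27.0 to 40.8 M fragments. The factors were 0.827 to 0.878 in control, 1.29 to 1.38 in TAA and 0.893 to 0.907 in recovery, so the mean log2 factor was 0.64 higher in TAA than in control; because 0.1 was added before log2, scaling lowered the differences of low genes by less. The 5 hepatocyte markers summed to 35779 to 39635 scaled FPKM in control, 21135 to 28039 in TAA and 44853 to 47429 in recovery. Skeletal muscle transcripts stood out in TAA mouse 3 alone, with 36.6 scaled FPKM over 6 genes and at most 0.43 in any other library. Control mouse 1 was low in the Kupffer cell lectin Clec4f, at 13.8 scaled FPKM beside 32.3 and 36.2 in the other control mice. The part of either in the class II values was not tested, and results were also computed without each mouse.

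The order of the group means per transcript length was the same in control, TAA and recovery. Cd74 was the most abundant, followed by H2-Aa, H2-Ab1, H2-Eb1, H2-DMa, H2-DMb1, Ciita, H2-Ob and H2-Oa. In control the means ran from 21.3 ± 3.77 scaled FPKM for Cd74 (SD, n = 3) down to 0.186 ± 0.0513 for H2-Oa. H2-Aa and H2-Ab1 overlapped between control livers, as did H2-Ab1 and H2-Eb1, and Ciita and H2-Ob. The other neighbours in the order did not overlap in control. Behind these values stood between 5 and 13449 estimated fragments per library, with H2-Oa (5 to 48) and H2-DMb1 (26 to 413) at the low end and H2-Aa (906 to 13449) at the high end.

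The comparison of TAA with control asked how the class II genes stood at the end of injury. Of the 9 members, 7 rose by at least 2-fold at FDR < 0.05 (limma, Benjamini-Hochberg over all genes tested), beside 17% of all genes called higher by the same rule. Those were the antigen-binding chains H2-Aa, H2-Ab1 and H2-Eb1, the invariant chain Cd74, the coactivator Ciita, the DM chain H2-DMb1 and the DO chain H2-Oa. The median log2 fold change of the 9 was 1.40, beside 0.02 over all genes tested. In 8 of the 9 every TAA liver was above every control liver, which held for 32.6% of all genes tested. H2-DMa was the exception in scaled FPKM.

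H2-Aa, the alpha chain of the A molecule, read 10.7, 15.2 and 16.9 scaled FPKM in control mice 1 to 3 and 67.7, 41.4 and 49.9 in TAA mice 1 to 3. The lowest TAA liver was more than 2-fold above the highest control liver. Its log2 fold change was 1.88 ± 0.22 (SE), with a 95% confidence interval of 1.37 to 2.40 and an adjusted p of 0.000327, the largest change among the members. H2-Ab1, the partner beta chain, read 8.33, 10.2 and 15.3 in control and 47.4, 24.0 and 38.9 in TAA. The groups did not overlap, and the log2 fold change was 1.69 ± 0.29 (1.0 to 2.37, adjusted p = 0.00215). H2-Eb1, the unpaired E beta chain, read 6.04, 9.85 and 6.52 in control and 25.9, 14.6 and 19.5 in TAA. It was also higher in every TAA liver, by 1.40 ± 0.25 on the log2 scale (0.82 to 1.98, adjusted p = 0.00235). TAA mouse 2 was the lowest of its group for all 3 chains, and TAA mouse 1 the highest.

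Cd74, the invariant chain that chaperones new class II pairs and blocks their groove, read 17.05, 22.7 and 24.2 scaled FPKM in control. Its TAA livers read 82.9, 47.8 and 68.4, again with mouse 2 lowest and no overlap. The log2 fold change was 1.61 ± 0.22 (1.11 to 2.12, adjusted p = 0.000607). Ciita, which encodes the class II transactivator, read 0.368, 0.540 and 0.631 in control and 1.64, 1.59 and 2.08 in TAA. Its TAA livers were closer together than those of the chains, and TAA mouse 3 was the highest. The log2 fold change was 1.62 ± 0.22 (1.12 to 2.13, adjusted p = 0.000596). Ciita overlaps Dexi on the opposite strand, and whether counting used strand is not given in the sources used here.

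The genes that act on peptide loading differed among themselves. H2-DMb1, a beta chain of the exchange factor DM, read 0.681, 1.66 and 1.92 scaled FPKM in control and 4.70, 2.67 and 3.64 in TAA. The log2 fold change was 1.39 ± 0.37 (0.51 to 2.26, adjusted p = 0.0155), and it was not called without control mouse 1 (0.96), without TAA mouse 1 (1.19) or without TAA mouse 3 (1.37). H2-DMb1 shares 22.7% of its 50-base stretches with its neighbor H2-DMb2, so reads may have been split between them. H2-DMa, the alpha chain, read 2.76, 3.84 and 3.24 in control and 6.25, 3.56 and 5.77 in TAA. TAA mouse 2 fell within the control range of scaled FPKM, and the log2 fold change of 0.62 ± 0.23 (0.09 to 1.15, adjusted p = 0.0511) missed both criteria. That value depends on the processing. It ran from 0.47 to 0.87 leaving out a mouse and reached 1.24 among all alternatives tried. Its locus overlaps Brd2 on the opposite strand.

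H2-Oa, the DO alpha chain, read 0.199, 0.230 and 0.130 scaled FPKM in control and 0.653, 0.538 and 0.468 in TAA. All TAA livers were higher, and the log2 fold change was 1.20 ± 0.23 (0.66 to 1.73, adjusted p = 0.0034). H2-Ob, the DO beta chain, read 0.294, 0.496 and 0.463 in control and 0.822, 0.612 and 0.898 in TAA. The groups did not overlap, but the log2 fold change of 0.77 ± 0.24 (0.22 to 1.32, adjusted p = 0.0264) was under 2-fold. It was at most 0.91 leaving out a mouse and reached 1.32 among all alternatives tried. With quantile normalization in place of the scaling factors, the values of H2-Oa (0.26) and Ciita (0.999) were not called and that of H2-Ob was -0.07.

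**Figure D1:**
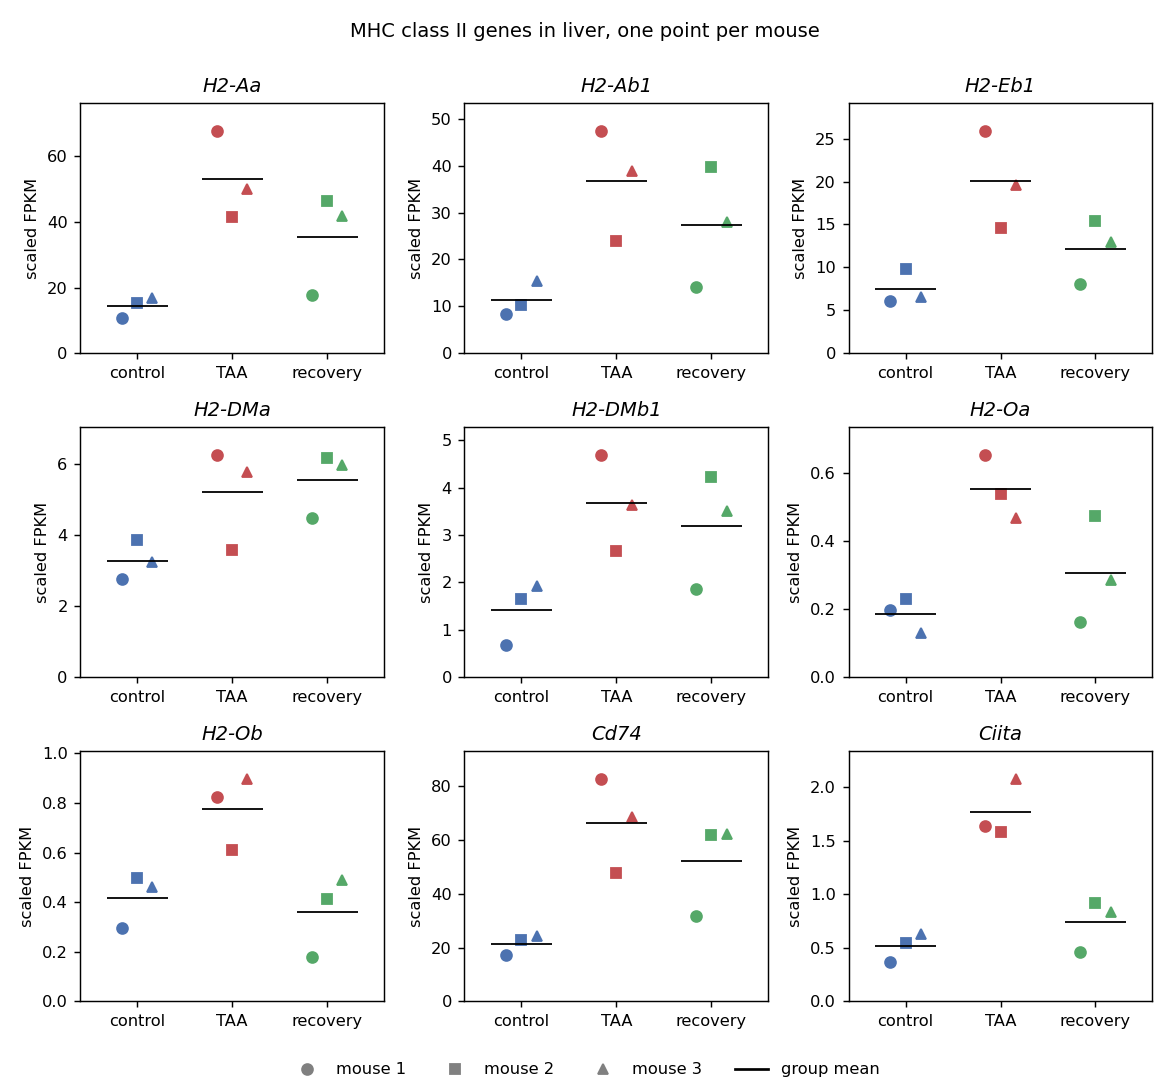
Scaled FPKM (linear axis from 0) of each of the 9 genes in the control, TAA and recovery livers, with a point for each mouse and a bar at the group mean. For H2-Aa the control mice sit between 10.7 and 16.9 and the TAA mice between 41.4 and 67.7, while recovery mouse 1 is at 17.7 and recovery mice 2 and 3 are at 46.4 and 41.9.

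The comparison of recovery with TAA asked how far these genes came down after 8 weeks without the toxicant, in mice that were also 8 weeks older. Ciita was the single member called lower, beside 14.3% of all genes tested. No member was called higher. The median log2 fold change of the 9 was -0.67, beside -0.01 over all genes tested. In Ciita and H2-Ob every recovery liver was below every TAA liver, which held for 31% of all genes tested. This comparison uses the same TAA libraries as the one above, and the recovery against control comparison uses the same recovery and control libraries.

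Ciita read 0.463, 0.916 and 0.831 scaled FPKM in recovery mice 1 to 3, against at least 1.59 in TAA. It fell by 1.20 ± 0.25 on the log2 scale (-1.77 to -0.62, adjusted p = 0.00523). Without recovery mouse 1 the value was -0.93 with an adjusted p of 0.00646, under 2-fold. H2-Ob read 0.179, 0.414 and 0.490 in recovery, below all TAA livers. Its log2 fold change was -0.98 ± 0.31 (-1.70 to -0.27, adjusted p = 0.0299), which passed the FDR but not the 2-fold criterion. H2-Oa read 0.162, 0.472 and 0.285, and recovery mouse 2 overlapped the TAA range (-0.75, -1.45 to -0.04, adjusted p = 0.075).

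For the remaining members the recovery mice were split. H2-Aa read 17.7 scaled FPKM in recovery mouse 1, just above the highest control liver, and 46.4 and 41.9 in recovery mice 2 and 3, both inside the TAA range. Its log2 fold change against TAA was -0.67 ± 0.36 (-1.50 to 0.15, adjusted p = 0.153). H2-Ab1 read 14.2, 39.8 and 28.0, with the same mouse apart from the other two (-0.50, -1.38 to 0.39, adjusted p = 0.314). Cd74 read 31.8, 62.1 and 62.3, and mice 2 and 3 again lay within the TAA range (-0.38, -1.06 to 0.30, adjusted p = 0.316). H2-Eb1 read 8.08, 15.4 and 13.0, and only mouse 2 was above the lowest TAA liver (-0.72, -1.36 to -0.09, adjusted p = 0.0584).

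The DM genes had the smallest log2 fold changes between TAA and recovery among the members. H2-DMb1 read 1.86, 4.22 and 3.50 scaled FPKM in recovery mice 1 to 3 (log2 fold change -0.24, -0.97 to 0.49, adjusted p = 0.56). H2-DMa read 4.49, 6.16 and 5.95, and its log2 fold change against TAA was 0.12 (-0.41 to 0.64, adjusted p = 0.693). The intervals of both include falls and rises, so the direction was not determined for either gene. Recovery mouse 1 was the lowest recovery liver for every one of the 9 members.

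**Figure D2:**
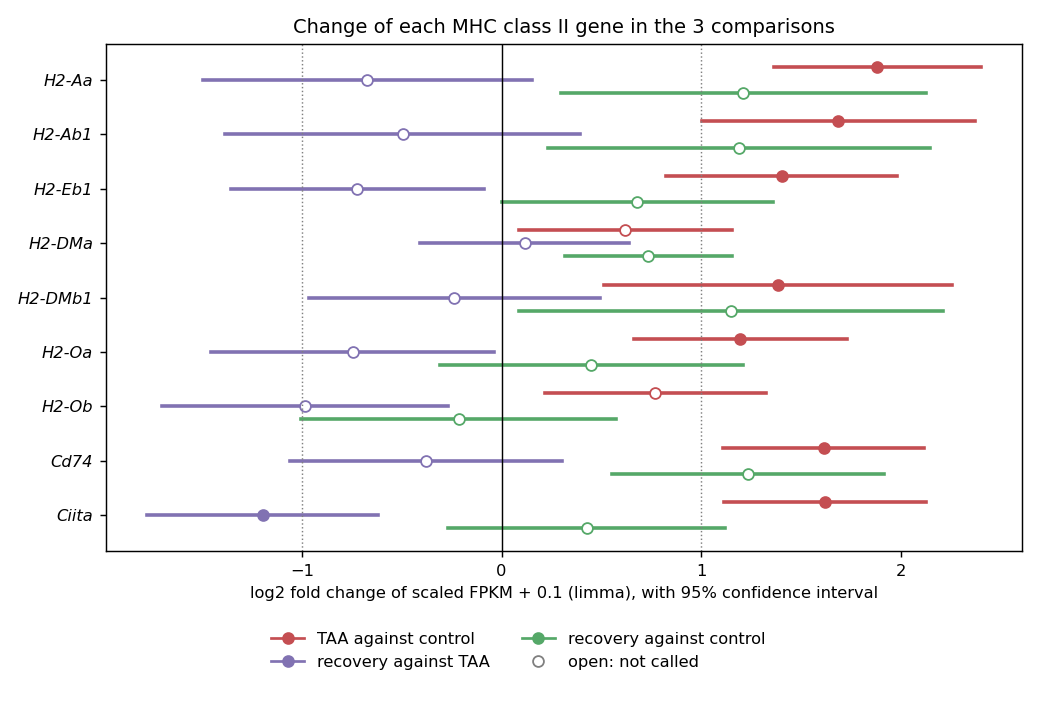
Log2 fold change of scaled FPKM + 0.1 for each gene in TAA against control (red), recovery against TAA (violet) and recovery against control (green), with 95% confidence intervals from limma; filled points were called at FDR < 0.05 and at least 2-fold (dotted lines), open points were not. In red 7 of 9 points are filled, in violet only Ciita, and in green none.

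The comparison of recovery with control asked what was left. The treat test of limma against 2-fold called 0 of all 14094 genes tested, so it does not set the members apart. By the rule used above no member was called either, beside 0.582% of all genes tested called higher. An unadjusted p under 0.05 was found for 6 of the 9, beside 23% of all genes tested. The median log2 fold change of the 9 was 0.74, beside 0.01 over all genes tested. In H2-Aa, H2-DMa and Cd74 every recovery liver was above every control liver, which held for 14.6% of all genes tested. Cd74 had the largest difference, at 1.23 ± 0.28 (0.55 to 1.92, adjusted p = 0.0731), followed by H2-Aa at 1.21 ± 0.38 (0.30 to 2.12, adjusted p = 0.134). H2-Ab1 was at 1.19 (0.23 to 2.15, adjusted p = 0.148) and H2-DMb1 at 1.15 (0.09 to 2.21, adjusted p = 0.189), and in both recovery mouse 1 lay below the highest control liver. H2-DMa stood at 0.74 (0.32 to 1.16, adjusted p = 0.0787) and H2-Eb1 at 0.68 (0.00 to 1.36, adjusted p = 0.215). Ciita was at 0.43 (-0.27 to 1.12, adjusted p = 0.424), H2-Oa at 0.45 (-0.31 to 1.21, adjusted p = 0.44) and H2-Ob at -0.21 (-1.0 to 0.58, adjusted p = 0.742).

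Leaving out recovery mouse 1 changed the calls of some members in this comparison. That mouse was the lowest recovery liver for all 9 members, so leaving it out raises every difference. It is singled out by these same values, so the calls without it are a description and no further support. Without that mouse, 2 members were called higher than control, H2-Aa (1.65, adjusted p = 0.0422) and Cd74 (1.56, adjusted p = 0.0302), beside 0.461% of all genes tested in the same fit. The other members were still not called. Leaving out a different mouse gave values as low as 0.96 for H2-Aa and 1.07 for Cd74. Expressed as the share of the mean TAA minus control difference in scaled FPKM still present, H2-Aa retained 8.94% in recovery mouse 1, 83.0% in mouse 2 and 71.3% in mouse 3. Cd74 retained 23.3%, 90.4% and 91.0% in the same mice. Ciita retained -4.01%, 32.1% and 25.3%, where a negative share is a value below the control mean. The median share over the 9 members was 8.94%, 83.0% and 65.3%, while the median over the 2389 genes called higher in TAA was 3.57%, 7.87% and 11.2%. These shares are descriptions, and the control and TAA means enter all of them.

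Ratios within a library do not depend on the scaling between libraries. The ratio of H2-Aa to H2-Ab1, which encode the chains of a pair, was 1.29 ± 0.196 in control, 1.48 ± 0.224 in TAA and 1.31 ± 0.172 in recovery (SD, n = 3), with overlapping ranges. Cd74 was 1.69 ± 0.166 times the mean of H2-Aa and H2-Ab1 in control, 1.48 ± 0.0533 times in TAA and 1.74 ± 0.28 times in recovery. The ranges of this ratio overlapped too. H2-Eb1 to H2-Ab1 was 0.705 ± 0.271, 0.551 ± 0.0519 and 0.475 ± 0.0915 in control, TAA and recovery, also with overlap. The ratio of H2-DMa to H2-Oa was 13.9, 16.7 and 25.0 in control, 9.58, 6.62 and 12.3 in TAA and 27.7, 13.0 and 20.8 in recovery. The TAA livers were below all others in this ratio, though by little (12.3 in TAA mouse 3, 13.0 in recovery mouse 2). H2-Oa rests on 5 to 48 estimated fragments per library, and the ratio takes only the alpha chains of DM and DO. The DM beta chain H2-DMb1 rose by 1.39 on the log2 scale in TAA, beside 1.20 for H2-Oa and 0.77 for H2-Ob. The alpha chain ratio therefore does not give the balance of DM to DO. H2-DMa to H2-DMb1 was 4.05, 2.31 and 1.68 in control and 1.33, 1.33 and 1.58 in TAA, and the recovery livers (2.41, 1.46 and 1.70) overlapped both groups. H2-Oa to H2-Ob was 0.473 ± 0.198 in control, 0.731 ± 0.188 in TAA and 0.875 ± 0.281 in recovery, with overlap throughout.

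The mean log2 level of H2-Aa, H2-Ab1 and H2-Eb1 minus the log2 level of Ciita was 4.14, 4.18 and 4.04 in control mice 1 to 3. It was 4.65, 3.86 and 3.95 in TAA and 4.50, 4.91 and 4.74 in recovery. The recovery livers were all above the control livers in this difference and overlapped the TAA livers through TAA mouse 1. No test was made of the ratios and differences within libraries.

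**Figure D3:**
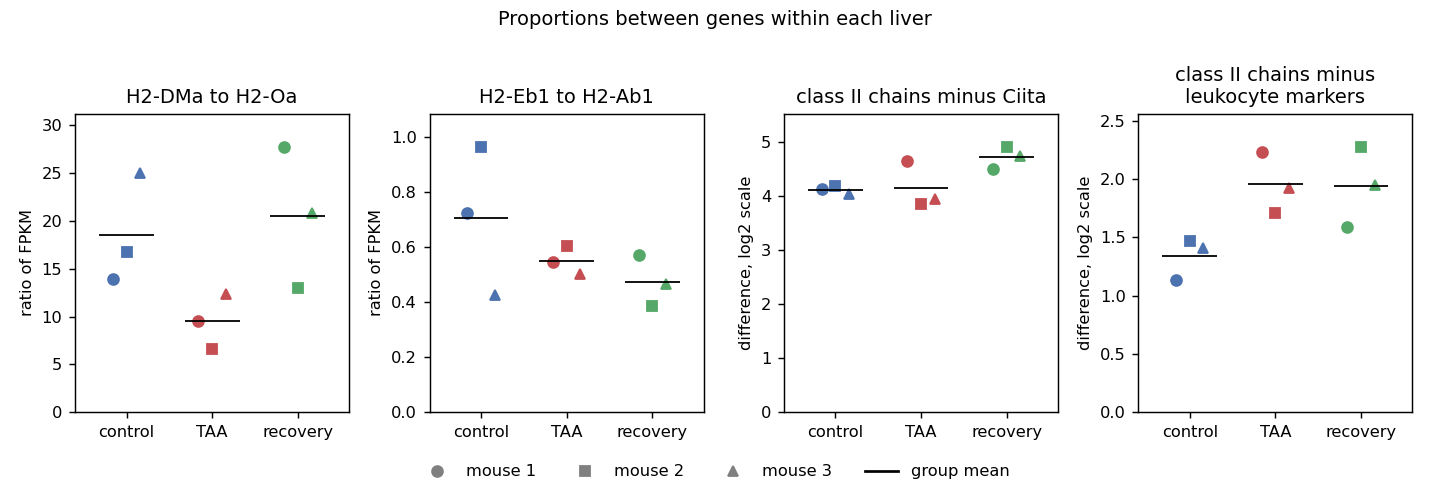
Proportions between genes within each liver (axes start at 0), with a point for each mouse and a bar at the group mean; the first 2 panels are ratios of FPKM and the last 2 are differences on the log2 scale. H2-DMa to H2-Oa is lowest in the TAA mice (6.62 to 12.3), and the chains minus Ciita are above the control range of 4.04 to 4.18 in the recovery mice (4.50 to 4.91).

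Beyond the members, 34 genes of the wider pathway had been listed, of which 32 were tested; H2-Ea and Ifi30 had no tested row. In TAA against control 5 of the 32 were called higher and 1 lower, beside the 17% and 8.02% of all genes tested, so the count of higher calls was near the background. Of the other class II loci, H2-DMb2, a further DM beta chain, rose by 1.15 (adjusted p = 0.0114), and H2-Eb2 by 1.0 (adjusted p = 0.0199) from as few as 2 estimated fragments. Neither was called with quantile normalization. The 8 endosomal genes tested went both ways, 4 up and 4 down, with a median log2 fold change of -0.14. At the FDR criterion Ctss, Lgmn and Ctsb were higher and Ctsh, Sppl2a (-0.84), Ctsl (-0.54) and Ctsz (-0.51) lower. That criterion was passed by 54.5% of all genes tested. Without scaling Ctsl and Ctsz were instead at 0.10 and 0.13. The cysteine protease gene Ctss (cathepsin S), whose product trims the invariant chain, read 21.8, 23.2 and 25.5 scaled FPKM in control and 59.1, 45.0 and 54.4 in TAA. It rose by 1.16 ± 0.12 (adjusted p = 0.00018) and read 33.0, 44.9 and 44.5 in recovery, between the other groups with all 3 mice above control. Its recovery against control difference was 0.78 (adjusted p = 0.0439), under 2-fold. Ctsh (cathepsin H) was the gene called lower, at -1.18 (adjusted p = 0.000669), but it was not called without scaling or with quantile normalization.

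Of the 4 costimulatory genes 2 were called higher in TAA and lower in recovery against TAA, beside 17% and 14.3% of all genes tested. Icosl, the ICOS ligand, read 0.293, 0.238 and 0.221 scaled FPKM in control, 1.37, 1.44 and 1.5 in TAA and 0.248, 0.441 and 0.412 in recovery. It was called in both directions, at 2.14 (adjusted p = 5.4e-05) and then -1.74 (adjusted p = 0.000378). Cd40, the receptor for the T cell ligand CD40L, was called at 1.47 (adjusted p = 0.00111) and then -1.14 (adjusted p = 0.039), neither of which was called with quantile normalization. Cd80 and Cd86, which encode the B7 molecules, were not called in any comparison. None of the 7 promoter-binding factors (the RFX and NF-Y subunits and Creb1) and none of the 7 genes of the interferon-gamma route to Ciita was called in TAA against control, and 6 of these 14 passed the FDR criterion, beside 54.5% of all genes tested. Their median log2 fold changes were -0.06 and 0.19. Rfxank, an RFX subunit, was the one called later: it read 2.56, 2.25 and 2.77 in TAA and 5.90, 6.06 and 5.30 in recovery (1.16, adjusted p = 0.000213, and 0.61, not called, without scaling). The ubiquitin ligase genes Marchf1 (0.59, adjusted p = 0.0841) and Marchf8 (-1.22, adjusted p = 0.0607), whose products can remove class II from the surface, were not called.

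Class I presentation genes, which serve CD8+ T cells and are expressed by nearly all nucleated cells, gave a different pattern. In TAA against control none of the 10 was called higher and 2 were called lower, beside the same 8.02% of all genes tested. H2-K1, a class I heavy chain, read 351, 345 and 424 scaled FPKM in control and 158, 122 and 127 in TAA (-1.46, adjusted p = 0.000102). B2m, the shared light chain, read 684, 789 and 838 in control and 395, 373 and 341 in TAA (-1.06, adjusted p = 0.00028). In recovery against TAA 3 were called higher, H2-K1 (1.61), B2m (1.69) and H2-D1 (1.07), beside 7.12% of all genes tested. These depend on scaling: in TAA against control neither was called without scaling or with quantile normalization, and B2m was then at -0.42 and 0.38. In recovery against TAA, H2-K1 (1.05) and B2m (1.12) were still called without scaling and H2-D1 (0.51) was not, and with quantile normalization none of the 3 was called (0.76, 0.35 and 0.35). H2-K1 and H2-D1 share 9.63% and 12.8% of their 50-base stretches with other genes. The within-library difference of the class II chains minus the class I genes, which the scaling factors cancel from except through the added 0.1, was -1.63, -0.99 and -1.15 in control, 1.26, 0.45 and 0.86 in TAA and -0.98, -0.04 and -0.12 in recovery. The TAA livers stood above all others, and the recovery livers stood above the control livers, recovery mouse 1 by little.

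The class II region itself holds genes of both pathways. Tap1 and Tap2 (the peptide transporter) and Psmb8 and Psmb9 (immunoproteasome subunits) lie between H2-DMb1 and H2-Ob. Their log2 fold changes in TAA against control were -0.21, 0.44, -0.00 and 0.13, and none was called. H2-DMb1 on one side of them was called higher and H2-Ob on the other was not. Of the 6 genes other than members in the interval, H2-DMb2 alone was called, beside 17% of all genes tested called higher in TAA.

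**Figure D4:**
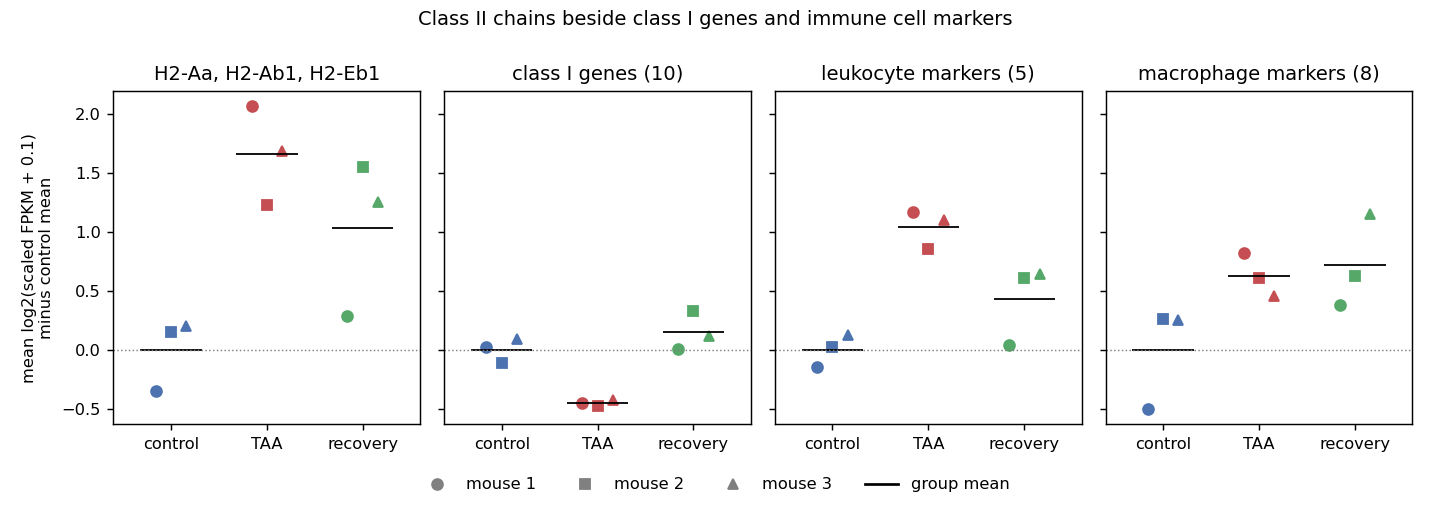
Mean log2(scaled FPKM + 0.1) of H2-Aa, H2-Ab1 and H2-Eb1, of 10 class I genes, of 5 leukocyte markers and of 8 macrophage markers in each mouse, minus the control mean, with bars at group means. The class II chains are above the control mice in every TAA mouse, the class I genes are below them in every TAA mouse (with quantile normalization B2m, at 0.38, and H2-D1, at 0.15, were instead above control), and recovery mouse 1 is lowest of its group in all 4 panels.

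Markers of cells that can carry class II differed among lists and within them. Marker calls in TAA stand beside 17% of all genes tested called higher and 8.02% called lower. Those in recovery against TAA stand beside 14.3% called lower. Of the 5 pan-leukocyte markers 3 were called higher, and their sum went from 21.4 to 23.5 scaled FPKM in control to 39.0 to 48.4 in TAA and 22.3 to 33.4 in recovery, with recovery mouse 1 lowest. Of the 8 dendritic cell markers tested (9 listed) 5 were called higher in TAA and 3 lower in recovery against TAA, and their sum was 4.39 to 5.94, 8.46 to 9.93 and 5.14 to 6.28 in control, TAA and recovery. Itgax (CD11c) read 0.811, 0.295 and 0.151 in control, 3.03, 2.15 and 2.97 in TAA and 0.484, 0.796 and 0.724 in recovery. Zbtb46, the most abundant of the list in control, went the other way in TAA (-0.44, adjusted p = 0.0174, under 2-fold). It read 3.21, 3.39 and 3.06 in control, 2.37, 2.53 and 2.13 in TAA and 3.19, 3.29 and 3.04 in recovery. Of the 8 macrophage and Kupffer cell markers 3 were called higher in TAA (Cd68, Marco and Lyz2), and their sum was 88.8 to 130 in control, 177 to 239 in TAA and 132 to 195 in recovery. Lyz2 made up most of that difference, with means of 45.4, 124 and 50.4 scaled FPKM. The Kupffer cell genes Clec4f, Vsig4 and Timd4 were not higher in TAA at the FDR criterion (-0.21, 0.13 and -0.64). In recovery against TAA all 3 rose at that criterion (0.76, 0.71 and 1.23), which 7121 of the 14094 genes tested passed in either direction. Without scaling these rises were 0.20, 0.15 and 0.70, and with quantile normalization 0.44, 0.51 and 1.63. Of the 7 B cell markers 1 was called higher, and the list was low in every liver, summing to at most 4.51 scaled FPKM. With quantile normalization Ccr7, Siglech and the B cell marker Cd22 were no longer called in TAA, nor Flt3 and Cd209a in recovery against TAA. Markers of some other cells also differed: in TAA against control 5 of 5 biliary markers (median log2 fold change 3.52) and 5 of 6 stellate cell markers (1.82) were called higher, and 3 of 5 hepatocyte markers (-1.11) were called lower. Of the sinusoidal endothelial markers 0 of 6 were called (-0.08), and of the T cell markers 1 of 5 was called higher (0.60). The 3 hepatocyte calls were lost without scaling and with quantile normalization, and the call of the stellate cell marker Des with quantile normalization. In no list was a marker at 0 in all livers of a group, except skeletal muscle. The part of cell numbers in the class II values was not tested.

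The class II chains were also set against these lists within each library. Their mean log2 level minus that of the leukocyte markers was 1.13, 1.47 and 1.41 in control, 2.23, 1.71 and 1.92 in TAA and 1.59, 2.28 and 1.95 in recovery. All TAA and all recovery livers lay above all control livers. Minus the macrophage markers, the difference was 0.53, 0.27 and 0.32 in control, 1.62, 0.99 and 1.60 in TAA and 0.29, 1.30 and 0.47 in recovery, so that the recovery livers overlapped control. Minus the B cell markers, the control livers (4.68 to 4.86) were below the TAA livers (5.79 to 6.04) and the recovery livers (5.44 to 5.98). Minus the dendritic cell markers, the groups overlapped (4.77 ± 0.42, 5.30 ± 0.431 and 5.51 ± 0.433).

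The genes whose pattern over the 9 livers was most like the mean of H2-Aa, H2-Ab1, H2-Eb1 and Cd74 were sought among 11094 genes by Pearson's r of log2 values, as a description without a test, since the 9 libraries share group differences. Ctss (r = 0.977) and Mpeg1 (r = 0.977), a macrophage pore-forming protein gene, came first. Laptm5 (0.964), Nop14 (0.963), Heg1 (0.963), Fgl2 (0.958), Fcer1g (0.956), Pdgfra (0.955), Cdkn2c (0.953) and Cd52 (0.952) followed. Mpeg1 read 14.3, 20.8 and 22.4 scaled FPKM in control, 43.4, 34.4 and 37.0 in TAA and 24.2, 39.9 and 34.2 in recovery. Like the class II chains, Mpeg1 had its lowest TAA value in mouse 2 and its lowest recovery value in mouse 1. It was chosen by r over the same 9 livers, so this likeness is not a further result. Cdkn2c, a cell cycle inhibitor gene, was the only one of these 10 called in recovery against control, at 1.27 (adjusted p = 0.0208).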

How the data were processed

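Total RNA from liver was sequenced in 3 mice of each group. Per the labels and the study's methods, the authors aligned reads to mm10 with HISAT2 2.2.1, counted fragments with featureCounts 1.5.0-p3 and deposited FPKM for each gene and library; the annotation release and the strand setting are not given in the sources used here.

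Each library was scaled by its median ratio to a reference over genes, and log2(scaled FPKM + 0.1) was fitted with limma 3.58.1 (R 4.3.3, empirical Bayes with a variance trend). Only genes whose FPKM averaged 0.1 or more entered. The 6 libraries of a comparison were fitted on their own. Genes at FDR < 0.05 and at least 2-fold were called, the thresholds of the study. Fold changes are on the log2(scaled FPKM + 0.1) scale, which understates those of low genes. Depth was inferred from FPKM steps: 59.6% to 69.8% of low values in a library came out as whole fragments within 0.08, beside 16% by chance, so a count model was not used. Symbols stored as dates (27) were read by Ensembl identifier. The named genes were the 9 members and listed pathway, class I and marker genes. The members and lists were chosen with earlier results of these data known. The labels do not say more of the samples than that each is a replicate liver, so p-values measure the spread between these samples. Other added constants, filters, scalings, fits and sets of mice were tried. The fit was run on simulated data in which far fewer genes changed than were called in TAA. No gene with a control mean as low as those of H2-Oa, H2-Ob and Ciita was changed there, so the simulation says nothing of such genes.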

Additional observations from a re-analysis of the deposited data

How the results depend on the processing

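Of the log2 fold changes of the 9 genes under all alternatives, 387 kept direction and call, 18 lost the call, 16 gained it and 5 turned. The 7 genes called in TAA against control became 4 with 1 added before log2 and 1 (H2-Aa) when the 2-fold change itself was tested (treat), and 6 to 7 leaving out a mouse. The 1 gene called lower in recovery against TAA became 0 with 1 added, 2 with 0.01 added, 6 without scaling and 0 with treat, and 0 to 3 leaving out a mouse; with quantile normalization it was H2-Aa in place of Ciita. The 0 in recovery against control became 1 (Cd74) with all 9 libraries fitted together and 0 to 2 leaving out a mouse. The values that turned were H2-Ob at -0.071 (TAA against control, quantile normalization), H2-DMa at -0.44 (recovery against TAA, no scaling) and, leaving out a mouse, H2-DMa (-0.13 to 0.27) and H2-DMb1 (-0.47 to 0.10) in recovery against TAA and H2-Ob (-0.43 to 0.11) in recovery against control. The causes were not tested.

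Over all genes, 3520 were called in TAA against control, and 1780 with 1 added, 2204 at a mean FPKM of at least 1 and 1441 with treat. In recovery against TAA 3017 were called, and 1460, 1895 and 1084 under the same settings. In recovery against control 140 were called, 80 with 1 added, 235 with all 9 libraries, 85 without the variance trend, 0 with treat and 32 to 106 leaving out a mouse. The split of higher to lower calls in TAA against control was 2389 to 1131, 4382 to 421 without scaling and 1534 to 1355 with quantile normalization, and in recovery against TAA 1003 to 2014, 409 to 3728 and 1198 to 1379.

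The groups share replicate numbers, but same-numbered livers did not deviate together (correlations -0.07 to 0.12), so the numbers were not taken as pairs. With the replicate block the members called stayed at 7, 1 and 0, and the genes called in recovery against control were 17. Low fragment numbers limit H2-Oa most among the members.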
